A study of Arabidopsis thaliana with 4 samples.

Results

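The fnr1 mutant was set against wild type in Columbia, an accession of Arabidopsis thaliana, with 1 Affymetrix array for each. The labels name the gene and not the allele, and do not say how many plants an array stands for. Both groups were kept at 21 °C on a peat soil of pH 6.5, in days of 8 h light (close to 100 µmol quanta on each square metre every second) and 16 h darkness. Above-ground tissue was collected at 31 days, 4 h into the light. The same pair of genotypes in Wassilewskija (Ws), another accession, gave the other 2 of the 4 arrays, and these share no array with the Columbia pair. Since each group has 1 array, no difference here has a replicate check, and no test, SE or p-value is given. Sizes are therefore descriptions of these arrays.

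Of 22746 probe sets left after the 64 controls were dropped, 11115 had a scaled signal of 30 or more on at least one Columbia array, and these are the ones described. Each array was first scaled to a median signal of 24.9, because the wild type Columbia array was dimmer as deposited, with a median of 22.1 against 27.7 for fnr1 Columbia. The signal has no absolute unit and is read only within a probe set. A ratio is the log2 of the fnr1 signal over the wild type signal, so 1 is 2-fold higher in fnr1. Signals under 10 were set to 10, which makes the ratio a bound. At the minimum of 30, AT3G04970 lay just inside, with 28.3 in fnr1 and 30 in wild type, and AT3G05570 just outside, with 29.98 and 19.7. A single gene was listed for 5832 of the described probe sets, several for 234 and none for 5049, so much of the comparison cannot be named.

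FNR1 encodes one of the leaf forms of ferredoxin-NADP+ oxidoreductase, which sits at the end of the photosynthetic electron chain, takes electrons from ferredoxin and makes NADPH. That NADPH feeds carbon fixation, chlorophyll synthesis and the reduction of peroxides, and ferredoxin that is not oxidised by the enzyme can pass electrons to other acceptors or back to the plastoquinone pool. Salicylate, a plant hormone of defence against biotrophic pathogens, has precursors made in the same organelle and controls many secreted and cell-surface proteins. No probe set was listed for FNR1 or FNR2, so the label of the mutant is taken as given. Whether a probe set without a listed gene measures either was not tested. In bulk tissue, fewer cells of a type and less RNA per cell cannot be told apart.

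The arrays showed few large differences. In fnr1, 125 of the described probe sets had a signal 2-fold higher or more (1.12%) and 52 had one 2-fold lower or more (0.468%). At 4-fold the counts were 19 and 2. Signals lay within 1.5-fold of each other for 10017 of the described probe sets. The median ratio was -0.02 and the SD across probe sets was 0.38, against -0.05 and 0.32 in Ws. The Ws pair gave 42 of 11048 on the higher side (0.38%) and 45 on the lower side (0.407%). At 1.5-fold the shares were 5.3% higher and 4.58% lower in Columbia, and 2.73% higher and 3.67% lower in Ws. Most 2-fold differences sat at low signal, as did most probe sets. Those with a mean under 100 were 6234 of the 11115 described, and held 95 of the 125 higher and 47 of the 52 lower ones. Among the 496 probe sets with a mean of 1000 or more, 3 were 2-fold higher and 0 lower.

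**Figure D1:**
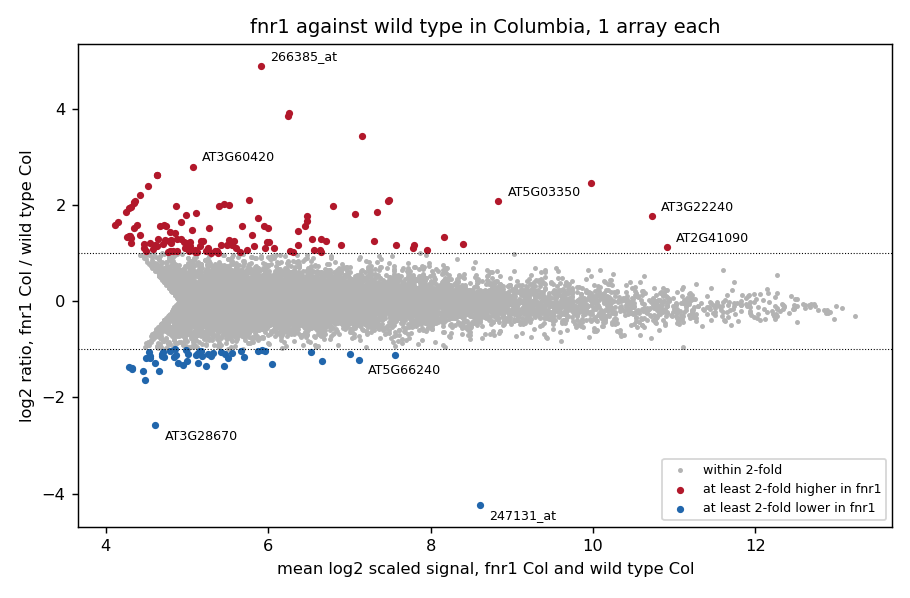
Each point is a probe set, with the mean log2 signal of the 2 Columbia arrays on the x axis and the log2 ratio of fnr1 over wild type on the y axis. The 125 probe sets at least 2-fold higher and the 52 at least 2-fold lower lie mostly at the dim end, and AT3G22240 and AT2G41090 stand among the bright ones.

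The Ws arrays, of another ecotype, give 2 more values for each probe set. The probe sets below were picked for their Columbia ratio, which favours a Columbia array standing apart. Of the 125 higher probe sets, fnr1 Columbia was at least 1.5-fold above each of the other 3 arrays in 68. In 38, wild type Columbia was at least 1.5-fold below each of the other 3, and 2 probe sets met both criteria. On the lower side, fnr1 Columbia was at least 1.5-fold below each of the others in 24 of 52, wild type Columbia at least 1.5-fold above each of the others in 13, and 2 met both. A signal of 30 or more on a Ws array was present for 84 of the 125, whose median Ws ratio was 0.39, and for 40 of the 52, whose median Ws ratio was 0.01. The other 41 and 12 were under 30 on both Ws arrays, where a high Columbia signal lies above Ws whatever the genotype. Among the 84, fnr1 Columbia lay apart above the others in 34 and wild type Columbia apart below them in 33. Among the 40, fnr1 Columbia lay apart below in 22 and wild type Columbia apart above in 7. At least 2-fold higher in both ecotypes were 16 probe sets, which is 12.8% of the Columbia list and 38.1% of the Ws list. At least 2-fold lower in both was 1 probe set, or 1.92% and 2.22% of the lists. Of all probe sets described in Ws, 0.38% were 2-fold higher and 0.407% 2-fold lower.

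**Figure D2:**
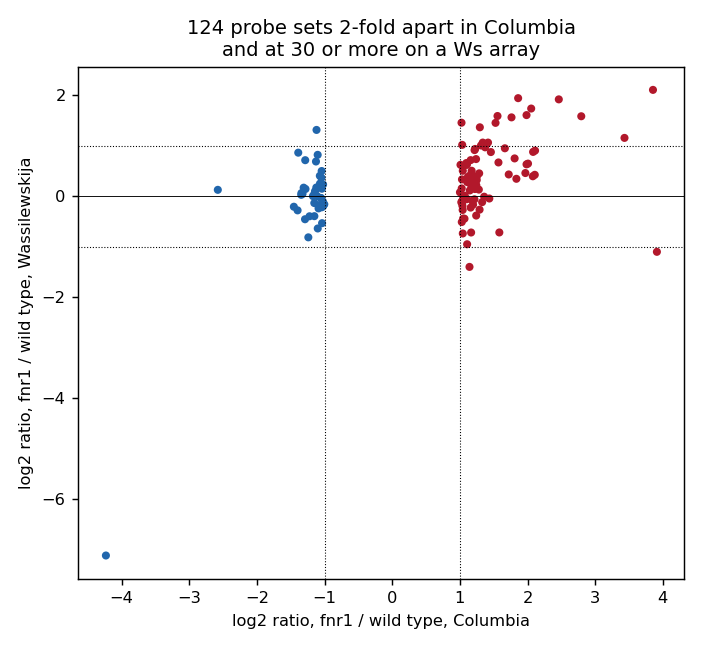
Each point is a probe set at least 2-fold apart in Columbia with a signal of 30 or more on a Ws array, with the Columbia log2 ratio on the x axis and the Ws log2 ratio on the y axis. Of the 84 higher ones 16 lie at 2-fold or more in Ws too, and of the 40 lower ones 1 does. Of all probe sets described in Ws, 0.38% were 2-fold higher and 0.407% 2-fold lower.

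The most different signals belonged to probe sets without a listed gene. Probe set 266385_at had a signal of 327.9 in fnr1 and 11.1 in wild type Columbia, a ratio of 4.89, against 22.7 in fnr1 and 21.0 in wild type Ws. It was high on 1 array only. Probe set 251625_at had 297.3 in fnr1 and 19.7 in wild type Columbia, a ratio of 3.91, but 14.6 and 31.3 in Ws, where the direction was the opposite. On the lower side, 247131_at had 89.9 in fnr1 and 1690 in wild type Columbia, a ratio of -4.23. Its signals of 1.87 and 1397 in fnr1 and wild type Ws put both mutants far below both wild types. Probe set 247127_at was dim, with 12.7 and 39.6 in Columbia and a ratio of -1.64, and had 29.7 and 26.0 in Ws.

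Among probe sets with a single gene, 49 were at least 2-fold higher and 29 at least 2-fold lower in fnr1 Columbia. Of the 23 named higher genes, fnr1 Columbia had the highest signal of the 4 arrays in 20. In Ws 4 were also at least 2-fold higher, where 0.38% of the probe sets described there were. Over all described probe sets fnr1 Columbia was the highest in 23.8%, but the genes were picked for a high Columbia ratio, which favours this order. The named genes are taken below by what their products do. These roles are background knowledge, since the gene tables list symbols and loci without descriptions.

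A gene of high signal was AT3G22240, which lies 2 genes from the defence gene PCC1 in the TAIR10.1 order. Its signal was 3136 in fnr1 and 919 in wild type Columbia, a ratio of 1.77 or 3.41-fold. Both Columbia arrays were bright and both Ws arrays near the floor, at 11.3 and 14.0. AT5G03350, of the legume lectin family, had 939 in fnr1 and 222 in wild type Columbia (2.08), against 36.5 and 27.8 in Ws, and so had the same split between the ecotypes. AT1G76960 was also higher on the Columbia arrays, with 88.1 and 21.7 in Columbia (2.02) and under 10 on both Ws arrays.

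CHI, a chitinase gene, had 61.8 in fnr1 Columbia and under 10 on the other 3 arrays, at least 6.18-fold higher than in wild type Columbia. Chitinases are secreted enzymes that cut the chitin of fungal cell walls. AT3G47010 had 46.0 in fnr1 and 6.49 in wild type Columbia, at least 4.6-fold higher, while in Ws the wild type was the brighter with 14.5 against 2.22. SBT3.5, a subtilisin-like protease gene, had 36.0 and 12.1 in Columbia (1.58) and 26.1 and 20.1 in Ws.

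Receptor kinases of the cell surface read out external signals and pass them on by phosphorylation. Of 28 entries on the list of those linked to defence, 3 had a listed probe set and 2 were described. AT1G11330, with a lectin-type outer domain, had 91.7 in fnr1 and 22.8 in wild type Columbia (2.01) and 44.2 and 28.3 in Ws. AT5G59670, with leucine-rich repeats, had 57.8 and 14.8 in Columbia (1.97) and 65.6 and 47.8 in Ws. For AT5G59670 it was thus the wild type Columbia array that stood apart, lying at least 1.5-fold below the other 3. AT1G16670, a protein kinase gene, had 45.5 and 15.2 in Columbia (1.58), and 18.6 and 30.6 in Ws with the opposite direction. A jacalin-type lectin gene, AT1G52000, had 47.5 and 19.4 in Columbia (1.29), and the higher signals of 87.2 and 105.0 in Ws.

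Some genes were higher in fnr1 in both ecotypes. AT3G60420, of the phosphoglycerate mutase family, had 88.6 in fnr1 and 12.8 in wild type Columbia, a ratio of 2.79, and 37.6 and 12.5 in Ws, a ratio of 1.58. AT1G19960 had 222.1 and 56.1 in Columbia (1.99) and 179.4 and 58.9 in Ws (1.61). AT5G55450, of the lipid transfer family of small secreted proteins, had 163.5 and 48.2 in Columbia (1.76) and 85.3 and 28.9 in Ws (1.56). In these 3 genes both mutant arrays lay above both wild type arrays. The same order held for AT4G38550, with 159.2 and 50.2 in Columbia (1.67) and 95.2 and 49.4 in Ws (0.95). AT5G52750, with a heavy-metal-associated domain, had 36.2 in fnr1 and 8.26 in wild type Columbia, at least 3.62-fold higher, and 28.95 and 10.3 in Ws.

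Cytochromes P450 are membrane enzymes that oxidise small molecules, among them defence compounds. CYP71B23 had 42.4 in fnr1 and 9.29 in wild type Columbia, at least 4.24-fold higher, and 24.3 and 13.3 in Ws. Its neighbour CYP71B22 had 39.0 and 9.97 in Columbia, at least 3.9-fold higher, and 14.4 and 11.3 in Ws. The 2 genes are close relatives, and whether their probe sets tell them apart was not tested. Other genes of the subfamily were nearer to no difference, with 0.34 for CYP71B26, 0.11 for CYP71B24, -0.11 for CYP71B34 and -0.19 for CYP71B35. The 11 described P450 genes, of 245 entries on the list, had a median of 0.11, and all but CYP78A9 were of this subfamily. CYP71B23 and CYP71B22 were the ones at least 2-fold apart. Of all described probe sets, 1.12% were 2-fold higher and 0.468% 2-fold lower.

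AT2G41090, of the calmodulin-like calcium-binding family, had 2838 in fnr1 and 1308 in wild type Columbia, a ratio of 1.12, and 1586 and 1218 in Ws. Its fnr1 Columbia signal was the highest of the 4. COR15A, a cold-regulated protein of the chloroplast stroma that protects membranes in freezing, had 283.6 and 127.1 in Columbia (1.16) and 182.2 and 136.6 in Ws (0.42). Its near copy COR15B had a ratio of 0.29 and the dehydrin COR47 one of -0.01, so 1 of the 3 described genes of the cold list was 2-fold apart. The list's median was 0.29, against 0.30 in Ws. That value is COR15B's own, with signals of 31.6 and 25.9 in Columbia, and it was 0.57 over 2 genes with a signal of 30 on both arrays, 0.47 over 4 with no signal minimum and 0.08 at a floor of 30.

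Other named higher genes were dim. AT3G44820 had 30.1 in fnr1 Columbia and under 10 in wild type, at least 3.01-fold higher, against 22.2 and 24.0 in Ws. AT1G18950 (2.7-fold), AT1G50280 (2.51-fold) and AT5G44820 (2.46-fold) had wild type Columbia signals of 12.1 to 16.8. In Ws the first 2 differed by less than 1.5-fold, and AT5G44820 had the opposite direction with 10.3 in fnr1 and 19.2 in wild type. The remaining 26 single-gene probe sets of the higher list had ratios of up to 1.29.

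**Figure D3:**
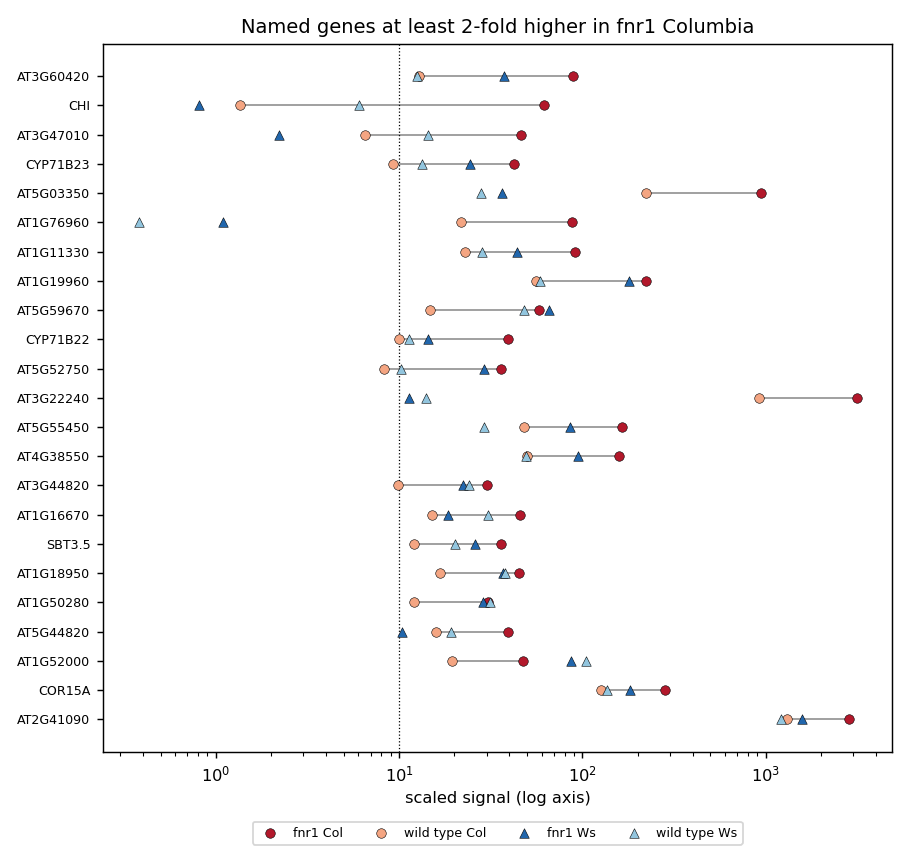
Scaled signal on a log axis for named genes that were 2-fold higher or more in fnr1 Columbia, 1 row per gene and 1 point per array, with a line joining the Columbia pair and a dotted line at the floor of 10. AT3G60420, AT1G19960 and AT5G55450 have both mutants above both wild types, while AT3G22240 and AT5G03350 are bright on the Columbia arrays and dim on the Ws arrays.

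Genes lower in fnr1 came next. Of the 16 named, fnr1 Columbia was the lowest of the 4 arrays in 12 and wild type Columbia the highest in 14. In Ws 1 was also at least 1.5-fold lower, where 3.67% of the probe sets described there were. Over all described probe sets the first 2 shares were 29.6% and 25.7%, but the genes were picked for a low Columbia ratio, which favours both orders. On the deposited scale 10 of these genes were under 2-fold lower, at a floor of 30 it was 12, and with log2(signal + 10) it was 11. AT3G28670 had 7.94 in fnr1 and 59.7 in wild type Columbia, at least 5.97-fold lower, and 30.3 and 27.8 in Ws. The Ws signals thus lay between those of the Columbia pair. The same was seen for AT3G09860, with 23.5 and 59.8 in Columbia (-1.34) against 39.0 and 38.3 in Ws, and for AT1G70180, with 19.5 and 48.9 (-1.33) against 35.8 and 34.7.

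AT4G34950, of a family of membrane transporters, was the named gene at least 1.5-fold lower in both ecotypes. Its signals were 65.7 in fnr1 and 155.2 in wild type Columbia, a ratio of -1.24, and 52.1 and 91.8 in Ws, a ratio of -0.82. AT5G66240, of the WD-repeat family, had 91.0 in fnr1 and 212.2 in wild type Columbia (-1.22), and 147.3 and 194.4 in Ws (-0.40). It lies 5 genes from FNR1 in the TAIR10.1 order.

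Among the 12 described genes within 20 genes of FNR1, AT5G66240 was the lowest and AT5G66180 the highest, at 0.62, and the others had ratios of -0.42 to 0.30. AT1G62050 had 27.7 in fnr1 and 70.1 in wild type Columbia (-1.34), with the Ws arrays at 30.6 and 29.3, so wild type Columbia alone was high. AT1G75730 had 12.4 and 32.4 in Columbia (-1.39) and the opposite direction in Ws, with 32.3 and 17.8. The others named were AT5G56520 (-1.46), AT3G08780 (-1.29), AT4G17610 (-1.28), AT1G49650 (-1.25), AT5G56380 (-1.17), AT1G05540 (-1.15), AT4G25780 (-1.15), AT3G53170 (-1.14) and AT4G32290 (-1.14), with fnr1 signals of 13.3 to 35.0. The remaining 13 single-gene probe sets of the lower list had ratios from -1.12 to -1.02.

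The described genes of groups next to the enzyme itself differed little, as did most described probe sets. Of 5 photosystem and electron carrier subunits the median was -0.08, from -0.17 for PSBY of photosystem II to 0.10 for PSAE-1 of photosystem I, which binds ferredoxin. The 3 minor antenna genes had -0.08 for LHCB4.1, -0.10 for LHCB4.2 and 0.43 for LHCB4.3. Of 3 Calvin-Benson genes, PRK, the phosphoribulokinase, had -0.26, and RCA, the Rubisco activase and a marker of leaf tissue, had -0.06 with signals of 6635 and 6905. The 3 genes of cyclic electron flow had a median of -0.01, from -0.035 for NdhN to 0.41 for PGRL1B. The 4 genes for enzymes fed by ferredoxin or NADPH had a median of -0.03. They ran from -0.34 for NTRC, the chloroplast NADPH thioredoxin reductase, to 0.025 for AT2G04700. None of these 18 genes was 1.5-fold apart, where 5.3% of all described probe sets were 1.5-fold higher and 4.58% 1.5-fold lower. The 5 lists, in this order, had 32, 20, 19, 12 and 12 entries, so most of their genes were not described. Relative to all probe sets, the sign of each of these 5 medians turned in 1 to 3 of 11 other settings of scaling and signal minimum.

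Genes of chlorophyll and heme synthesis and of antioxidant enzymes were likewise less than 1.5-fold apart. CHLM, a methyltransferase of the magnesium branch, had 1503 in fnr1 and 2053 in wild type Columbia (-0.45), with 1602 and 1547 in Ws, so wild type Columbia was the high array. HEMB1 had -0.40, CHLI2 -0.29 and GSA1 -0.28, and PORB, the light-dependent protochlorophyllide reductase, had 0.34. The median of the 5 was -0.29 in Columbia, against -0.07 for probe sets with a mean of 300 or more, and -0.27 in Ws. The Columbia median lay 0.25 to 0.28 below that of all probe sets in 11 other settings that keep a signal minimum. On the deposited scale it was 0.04, where the median of all was 0.32. Of 6 antioxidant genes 5 had a ratio below 0, where 52.5% of all described probe sets did and 61.0% of those with a mean of 300 or more. Their median was -0.14, against -0.07 for probe sets of that brightness, and 0.18 on the deposited scale. AT3G11630, a 2-Cys peroxiredoxin gene, had 2452 and 3202 in Columbia (-0.38), GR2, the chloroplast glutathione reductase, had -0.34, and CCS, the copper chaperone of superoxide dismutase, had 0.21.

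Genes of the plastid genome were balanced around 0 after scaling. Of 67 described, 34 had a ratio above 0 and 33 below, with a median of 0.00, against -0.10 in Ws. Most of them are bright, and all probe sets with a mean of 300 or more had a median of -0.07 with 61.0% below 0. They ran from -0.83 for rpl20, a ribosomal protein of the plastid, to 0.65 for psbJ, a small subunit of photosystem II. None was 2-fold apart, where 1.12% of all described probe sets were 2-fold higher and 0.468% 2-fold lower. The RNA was copied with an oligo(dT) primer, and how well that captures plastid transcripts was not tested.

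Ribosomal proteins of the cytosol were the largest group that lay to one side. Of 115 described genes, 102 (88.7%) had a ratio below 0, where 52.5% of all described probe sets did, and the median was -0.27. Their quartiles were -0.44 and -0.11, and 13 (11.3%) were at least 1.5-fold lower, where 4.58% of all described probe sets were. None was 2-fold lower, where 0.468% of all described probe sets were. These genes are bright, and at a mean signal of 300 or more the 91 among them had a median of -0.29 with 84 below 0, while 1761 probe sets of that brightness had -0.07 with 61.0% below 0. In Ws their median was -0.15 with 87 below 0, where 56.4% of the probe sets were. The fnr1 Columbia array had the lowest signal of the 4 in 82 of the 115 genes, where it had the lowest in 29.6% of all probe sets. In the other scalings and signal minimums the median lay 0.20 to 0.26 below that of all probe sets. On the deposited scale it was 0.06, where the median of all was 0.32.

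The genes were not alike in Ws. AT5G27700, of the small subunit, had 1291 in fnr1 and 2183 in wild type Columbia (-0.76), with 2266 and 1943 in Ws. AT2G37190, of the large subunit, had 765.8 and 1281 in Columbia (-0.74), with 1686 and 1225 in Ws. In both genes the fnr1 Columbia array was the lowest of the 4, and fnr1 Ws was the highest. AT3G24830, also of the large subunit, had 1011 and 1563 in Columbia (-0.63), and 1196 and 1518 in Ws, with both mutants below both wild types. The range of the group was -0.93, for AT1G07070, to 0.31, for AT3G02190.

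UDP-glycosyltransferases, which attach sugars to hormones, flavonoids and foreign compounds, lay to the other side. Of 17 described genes 14 (82.4%) had a ratio above 0, where 47.5% of all described probe sets did, and the median was 0.32. UGT88A1 had 990.1 in fnr1 and 743.8 in wild type Columbia (0.41), with 506.6 and 558.4 in Ws. UGT72E1 had 0.45 and UGT78D2, a flavonoid glucosyltransferase gene, 0.41. UGT80B1 (0.63) was the highest and the 1 that was 1.5-fold apart, and UGT85A2 (-0.39) was the lowest. The Ws median was -0.00. Of the 17 genes, fnr1 Columbia was the highest of the 4 arrays in 7, where it was in 23.8% of all probe sets, and wild type Columbia the lowest in 8, where it was in 25.7%. With no signal minimum, 50 genes had a median of 0.00.

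**Figure D4:**
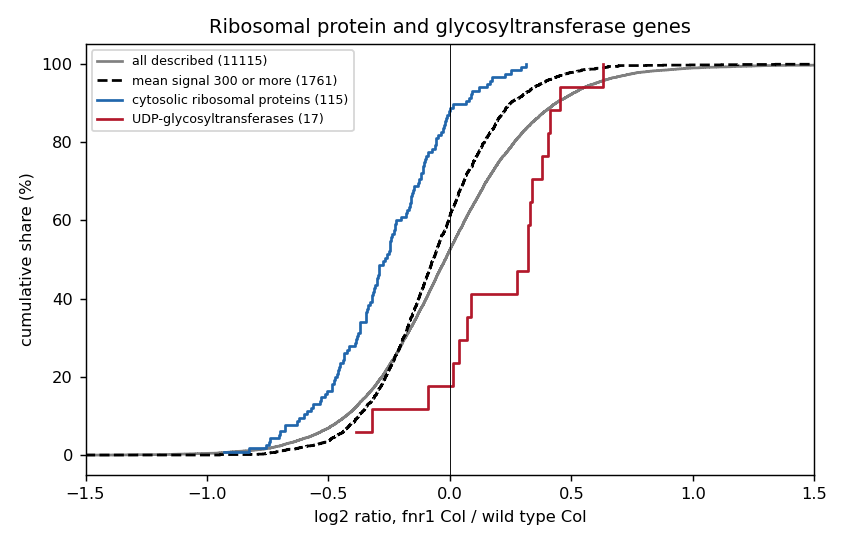
Cumulative step curves of the log2 ratio of fnr1 over wild type in Columbia. The curves are for all described probe sets and for those with a mean signal of 300 or more. The others are for the 115 cytosolic ribosomal protein genes and the 17 UDP-glycosyltransferase genes. The Columbia medians, which are not drawn, are -0.27 for the ribosomal genes and 0.32 for the glycosyltransferase genes.

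Smaller groups gave single values. Glutathione transferases, which join glutathione to reactive compounds, had a median of 0.25 over 5 genes, with GSTU18 at 0.57, and one of 0.02 over 13 genes with no signal minimum. GSTU20 was the lowest of the 5 at -0.07. GSTU16, the highest, had 106.0 in fnr1 and 64.1 in wild type Columbia (0.73) and 97.6 and 58.4 in Ws (0.74). For GSTU16 both mutants lay above both wild types. In Ws the median of the 5 was -0.14, with 3 below 0. Expansins and xyloglucan endotransglucosylases, which loosen cell walls, had a median of -0.06 over 11 genes, with XTH16 lowest at -0.86 and EXPA8 highest at 0.17. EXO, a brassinosteroid-responsive gene of growth and sugar status, had 70.5 in fnr1 and 135.2 in wild type Columbia (-0.94). It had 60.1 and 62.0 in Ws, so wild type Columbia alone was high. AT3G15450, the other described gene of the sugar starvation list, had -0.07. The 2 described salicylate response genes were AT3G22240, given above, and ECS1 (0.16), and the list's other 34 entries were not described. ZAP1 (0.08) and WRKY20 (-0.05) were the described WRKY factors, GI (-0.11) the clock gene and DFR (0.19) the flavonoid gene.

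Tissue markers were few. PYK10, a beta-glucosidase most abundant in roots, was the described root marker, with 124.2 in fnr1 and 103.8 in wild type Columbia (0.26) and 66.8 and 87.9 in Ws. No probe set was listed for the flower and seed markers, so those organs could not be compared, and their part in the results was not tested. The RNA control ratios differed between the Columbia arrays in some controls. The 3' to 5' signal ratio was 2.58 in fnr1 and 2.78 in wild type for actin, 0.818 and 0.898 for GAPDH, 1.21 and 1.52 for ubiquitin and 30.3 and 15.2 for an older actin control. Their part in the gene differences was not tested.

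**Figure D5:**
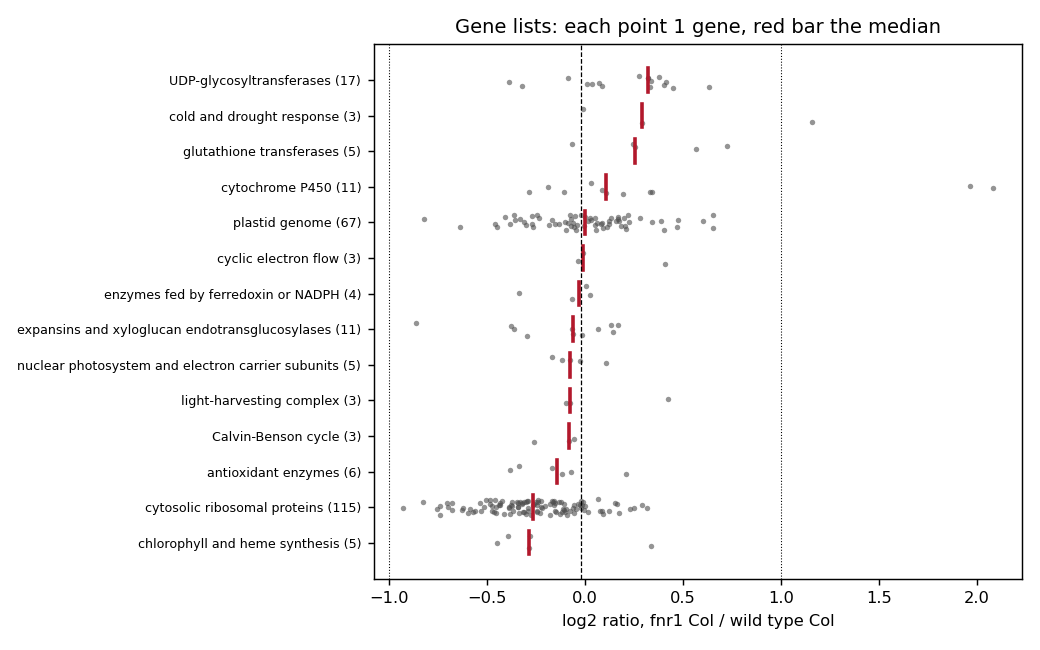
Log2 ratios of fnr1 over wild type in Columbia for the gene lists with at least 3 described genes, 1 point per gene, with the median of each list and a line at the median of all described probe sets. The 115 ribosomal protein genes (median -0.27) and the 17 UDP-glycosyltransferase genes (median 0.32) lie to opposite sides, and the 67 plastid genes have a median of 0.00.

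The brightest probe sets, with a mean signal of 1000 or more, set these values in scale. After AT3G22240 and AT2G41090, the highest single genes were UBC28, a ubiquitin-conjugating enzyme gene, and psbJ, both at 0.65. The lowest were the ribosomal genes AT5G27700, AT2G37190 and AT3G24830, followed by AT5G44020, of an acid phosphatase family, with 846.9 in fnr1 and 1305 in wild type Columbia (-0.62) and 608.7 and 705.8 in Ws. The genes at least 2-fold apart lay on all 5 nuclear chromosomes, from 18 higher and 8 lower among 1487 described on chromosome 1 to 7 higher and 2 lower among 845 on chromosome 2, and none of the 67 plastid genes was among them. For the 41 genes with several probe sets, the ratios of a gene's probe sets differed by a median of 0.30 and by up to 1.23, which is as large as many of the ratios above.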

How the data were processed

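Each probe set has 1 deposited intensity on each array, on a linear scale. The authors used MAS5, per the submitters' processing notes. Its version, scaling target and detection calls are not given in the sources used here. Per the labels' protocols, 3 µg of total RNA was copied with an oligo(dT) primer and labelled with biotin. Groups came from the sample titles. From the deposited intensity values, control probe sets were dropped, each array was multiplied to a median of 24.9, the mean of the 2 Columbia medians, and probe sets at 30 or more on at least one Columbia array were described by log2 ratios computed with signals under 10 set to 10 (Python 3.11.15, numpy 2.4.6, pandas 2.3.3, statsmodels 0.14.6 and matplotlib 3.10.9). The counting was tested on simulated data, with differences placed only in probe sets well above the signal minimum. The noise put in was smaller than the spread of the dim probe sets, so the dimmest 2-fold differences were not checked. The number of arrays limits the precision.

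The probe annotation listed 14016 probe sets, 13513 with a single gene and 503 with several, and 13436 of the 13513 matched the TAIR10.1 gene table. Another 8730 had no entry, and a gene is named here where its probe set lists it alone. The members and lists were chosen with earlier results of these data known. Of 30 lists, 14 had at least 3 described genes. Where a gene had several probe sets, the brightest stood for it. Families were matched on symbols and synonyms, since the gene table holds no descriptions, and the 224 ribosomal loci were written by hand after values were seen. Receptor kinases of defence are given gene by gene (2 described). The jasmonate and rapid stress lists had 3 and 1 listed genes, none described. No entry of the flower, seed, glucosinolate, heat shock, lipid transfer and receptor kinase family lists had a listed probe set. The match on names missed family members known by locus alone, such as AT5G55450.

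Named were the 15 highest and 15 lowest single genes with both Columbia signals at 10 or more, every gene at least 2-fold apart as a bound, the 4 highest and 4 lowest at a mean of 1000 or more, every list member 2-fold apart or else the list's highest and lowest, and the 2 highest and 2 lowest probe sets without a single gene. Other genes of a list, AT5G66180, and the pair at the signal minimum were chosen after their values were seen. Alternatives were other scalings, signal minimums, floors and folds.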

Additional observations from a re-analysis of the deposited data

Results flagged for a closer look

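Probe set 251625_at, for which no gene was listed, had opposite directions in the 2 ecotypes. Its log2 ratio of fnr1 over wild type was 3.91 in Columbia, with signals of 297.3 and 19.7, and -1.1 in Ws, with signals of 14.6 and 31.3. The difference between the ecotypes was not tested, since each has 1 array per genotype. Groups of fewer than 4 arrays could not be searched for samples that stand apart.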

How the results depend on the processing

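The main counts were 125 higher and 52 lower, with 70.6% of the 2-fold differences on the higher side. On the deposited scale, where the median of all probe sets shifts by 0.34, they were 429 and 8 (98.2% higher). A signal of 30 on both arrays gave 45 and 15, a signal of 100 gave 38 and 7 (84.4%), no signal minimum gave 184 and 133 (58.0%), a floor of 30 gave 61 and 17, and log2(signal + 10) without a floor gave 68 and 11 (86.1%). The counts were 589 and 509 at 1.5-fold and 36 and 3 at 3-fold. Trimmed-mean, quantile and loess scaling, a minimum of 30 on the deposited values, a floor of 5 and a scaling chosen after seeing the data, to the median of probe sets at 30 on all 4 arrays, gave 124 to 138 higher and 48 to 52 lower. No named gene at least 2-fold apart turned its direction under these alternatives, but some came under 2-fold: of the 23 higher genes 12 at a floor of 30 and 3 with log2(signal + 10), and of the lower genes 10 of 15 on the deposited scale, and 12 and 11 of 16 in those 2 settings. On the deposited scale, named genes near 0 such as RCA, PRK and PSBY lay above 0. No paired analysis was possible because each group has 1 array. Dim signals limit the comparison: 95 of the 125 and 47 of the 52 had a mean under 100, as did 6234 of all 11115 described probe sets.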
